A study of Mus musculus with 14 samples.

Results

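The 9 genes described here make up the RANKL, OPG and M-CSF system, through which cells of the bone marrow stroma govern osteoclasts, together with enzymes by which osteoclasts resorb bone. They are Tnfsf11 (RANKL), Tnfrsf11b (OPG), Tnfrsf11a (RANK), Csf1 (M-CSF), Il34, Csf1r, Acp5, Ctsk and Car2, 9 of the 18193 gene symbols that the array's probe table pairs with a probe set of 1 symbol. A probe set was taken where its symbol was exactly one of these names, which gave 17 probe sets. Of these 14 were above the dimmest 33.3% of all probe sets by mean signal, and every one of the 9 genes kept at least 1. The 3 probe sets that were too dim were the other probe sets of Tnfsf11, Tnfrsf11b and Tnfrsf11a.

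RNA came from 4 groups of marrow cells of C57BL/6J mice labelled wild type, aged 6 to 8 weeks, all carrying pOBcol2.3-GFP, a transgene that joins GFP to part of the type I collagen promoter and so marks cells of the osteoblast lineage. The groups were GFP+ cells of mice given G-CSF (3 arrays), GFP+ cells of untreated mice (3 arrays), CD31+ cells of mice given G-CSF (4 arrays) and CD31+ cells of untreated mice (4 arrays). G-CSF, the cytokine that raises neutrophil production and moves blood stem cells out of the marrow, was given under the skin at 250 ug/kg for 5 days. The untreated mice received vehicle according to the protocol text, which gives 7 days in their records and 5 in those of the G-CSF arrays. Cells were freed by serial collagenase digestion and sorted as lacking CD45 and ter119, with GFP and no CD31 (labelled osteoblasts) or with CD31 and no GFP (labelled endothelial cells). The labels do not say that replicates were separate animals or pools, so each p-value measures the spread between these samples, which may be technical.

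RANKL, carried on the surface of osteoblast lineage cells or released by them, binds RANK on myeloid precursors and turns them into osteoclasts, while OPG, a soluble decoy receptor, captures RANKL before it reaches RANK. M-CSF and IL-34 both act through the receptor CSF1R, which keeps those precursors alive and dividing. Mature osteoclasts secrete acid, made with carbonic anhydrase II (Car2), and the enzymes cathepsin K (Ctsk) and tartrate-resistant acid phosphatase (Acp5). G-CSF is known to change bone turnover in mice along with its action on blood cells.

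RANKL and M-CSF are the ligands that set the sorts apart below, so their RefSeq promoters are shown (build GRCm38.p6, the 250 bases before the start, written 5′ to 3′ along the gene). The Tnfsf11 promoter is chr14:78308044-78308293 and the Csf1 promoter is chr3:107760470-107760719, both on the minus strand. Capitals mark a match to the TATA box (TATAAA, here on the opposite strand) in Tnfsf11 and a match to the NF-kB motif in Csf1.
Tnfsf11: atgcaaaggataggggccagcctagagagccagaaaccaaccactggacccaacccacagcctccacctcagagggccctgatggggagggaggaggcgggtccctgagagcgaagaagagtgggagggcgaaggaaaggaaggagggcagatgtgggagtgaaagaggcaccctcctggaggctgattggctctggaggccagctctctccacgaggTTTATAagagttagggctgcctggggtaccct
Csf1: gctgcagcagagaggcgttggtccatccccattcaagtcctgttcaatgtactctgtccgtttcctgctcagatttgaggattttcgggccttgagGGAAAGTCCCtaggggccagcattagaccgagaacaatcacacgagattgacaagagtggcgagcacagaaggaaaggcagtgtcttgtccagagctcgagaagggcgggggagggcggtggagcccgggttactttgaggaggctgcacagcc

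Both strands were searched for 6 motifs. The TATA box match of Tnfsf11 lay at -32 to -27 from the start, and such a match stood in 12.4% of 32851 promoters of this length. The NF-kB match of Csf1 lay at -154 to -145 and overlapped a match to the NFAT core (GGAAA) at -154 to -150, and these motifs stood in 3.90% and 55.6% of promoters. STAT (TTCNNNGAA), AP-1 (TGANTCA) and RUNX (TGTGGT) letters were in 7.02%, 6.75% and 14% of promoters and in none of the 7 entries of the 5 members that had one (Tnfsf11, Csf1, Tnfrsf11a, Acp5 and Ctsk). Promoter entries for Tnfrsf11b, Il34, Csf1r and Car2 were not used here. A match describes the letters only.

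The arrays were scaled to a common level, with trimmed means of 500.003 to 500.004, and any 2 arrays correlated by 0.845 to 0.970. The sort labels were borne out by the markers in part. In both conditions 18 of 18 endothelial markers were called lower in GFP+ than in CD31+ cells, against 14.4% of all genes after G-CSF and 12.8% without treatment. Of 13 measured osteoblast markers, 3 were called higher in GFP+ cells without treatment (13.6% of all genes) and 11 after G-CSF (17.5%). The summed signal of the osteoblast markers was 178226 to 338035 in untreated GFP+ cells and 126351 to 213088 in untreated CD31+ cells, so these transcripts were also bright in the CD31+ sort. Untreated GFP+ replicate 2 stood apart, with summed neutrophil markers of 294647 against 46412 and 60543 in the other untreated GFP+ arrays, and untreated CD31+ replicate 1 with summed muscle markers of 187773 against 27341 to 33994 in the other untreated CD31+ arrays. GFP+ replicates 2 and 3 of both conditions were deposited with more decimals than all other arrays, so results are also given below with this as a batch where it matters. Results without the arrays that stood apart are given where they differ.

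RANKL and OPG were both higher in GFP+ than in CD31+ cells, with or without G-CSF, and neither differed detectably between treated and untreated mice. Tnfsf11 (Entrez 21943) had signals of 1968, 1127 and 2899.7 in GFP+ cells after G-CSF and 2393, 640.4 and 2818 in untreated GFP+ cells. It had 90.0, 9.3, 79.8 and 134 in CD31+ cells after G-CSF and 42.6, 49.0, 102 and 148 in untreated CD31+ cells. Every GFP+ array was above every CD31+ array, while within each sort the treated and untreated arrays overlapped. On the log2 scale (all tested values are log2 of signal plus 16) GFP+ cells exceeded CD31+ cells by 4.57 ± 0.61 (SE) after G-CSF, 23.8-fold with an adjusted p of 4.43e-05, and by 4.15 ± 0.61 without treatment, 17.8-fold with an adjusted p of 0.000151. The size of these folds is approximate, since the CD31+ signals lie near the floor: the difference after G-CSF was 5.04 with a pseudocount of 1 and 3.85 with 64, and the untreated one was 4.82 without GFP+ replicate 2. As in any comparison of bulk samples, fewer cells of a type and less RNA per cell cannot be told apart here.

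The lowest Tnfsf11 signal among GFP+ cells, 640.4, was that of untreated replicate 2, the array with high blood markers. The change with G-CSF was 0.19 ± 0.66 in GFP+ cells (95% interval -1.21 to 1.59, adjusted p 0.969) and -0.23 ± 0.57 in CD31+ cells (-1.45 to 0.98, adjusted p 0.936). The first interval holds changes of over 2-fold in either direction. The second Tnfsf11 probe set, too dim to be tested, gave 26.4 to 61.0 in GFP+ cells after G-CSF and 53.6 to 89.3 in untreated GFP+ cells, against 2.1 to 21.0 in CD31+ cells after G-CSF and 1.7 to 16.6 in untreated CD31+ cells.

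Tnfrsf11b (Entrez 18383), the gene of the decoy receptor, had signals of 608, 344 and 349 in GFP+ cells after G-CSF and 550.1, 213 and 338 in untreated GFP+ cells. It had 169, 7.6, 15.4 and 113 in CD31+ cells after G-CSF and 81.0, 17.0, 117 and 88.8 in untreated CD31+ cells. The sorts did not overlap, and the low CD31+ arrays (replicates 2 and 3 after G-CSF, replicate 2 untreated) widened the spread there. GFP+ cells were higher by 2.74 ± 0.66 after G-CSF, 6.70-fold with an adjusted p of 0.00504, and by 2.13 ± 0.66 without treatment, 4.38-fold with an adjusted p of 0.0265. Here too the pseudocount sets the size, with 3.36 after G-CSF for a pseudocount of 1 and 1.97 for 64, and the number of decimals as a batch gave 3.33 after G-CSF and 2.72 without treatment. The untreated call was lost without GFP+ replicate 1 (1.80, adjusted p 0.115), GFP+ replicate 3 (2.14, adjusted p 0.0688) or CD31+ replicate 2 (1.69, adjusted p 0.0795), and with a pseudocount of 1 (adjusted p 0.0610). With G-CSF, Tnfrsf11b differed by 0.28 ± 0.70 in GFP+ cells (adjusted p 0.958) and by -0.33 ± 0.61 in CD31+ cells (adjusted p 0.910). The second Tnfrsf11b probe set, too dim to be tested, did not set the sorts apart. Its signals after G-CSF were 5.3 to 7.8 in GFP+ and 3.2 to 8.5 in CD31+ cells. Untreated, they were 6.4 to 35.3 in GFP+ and 2.4 to 34.4 in CD31+ cells.

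**Figure D1:**
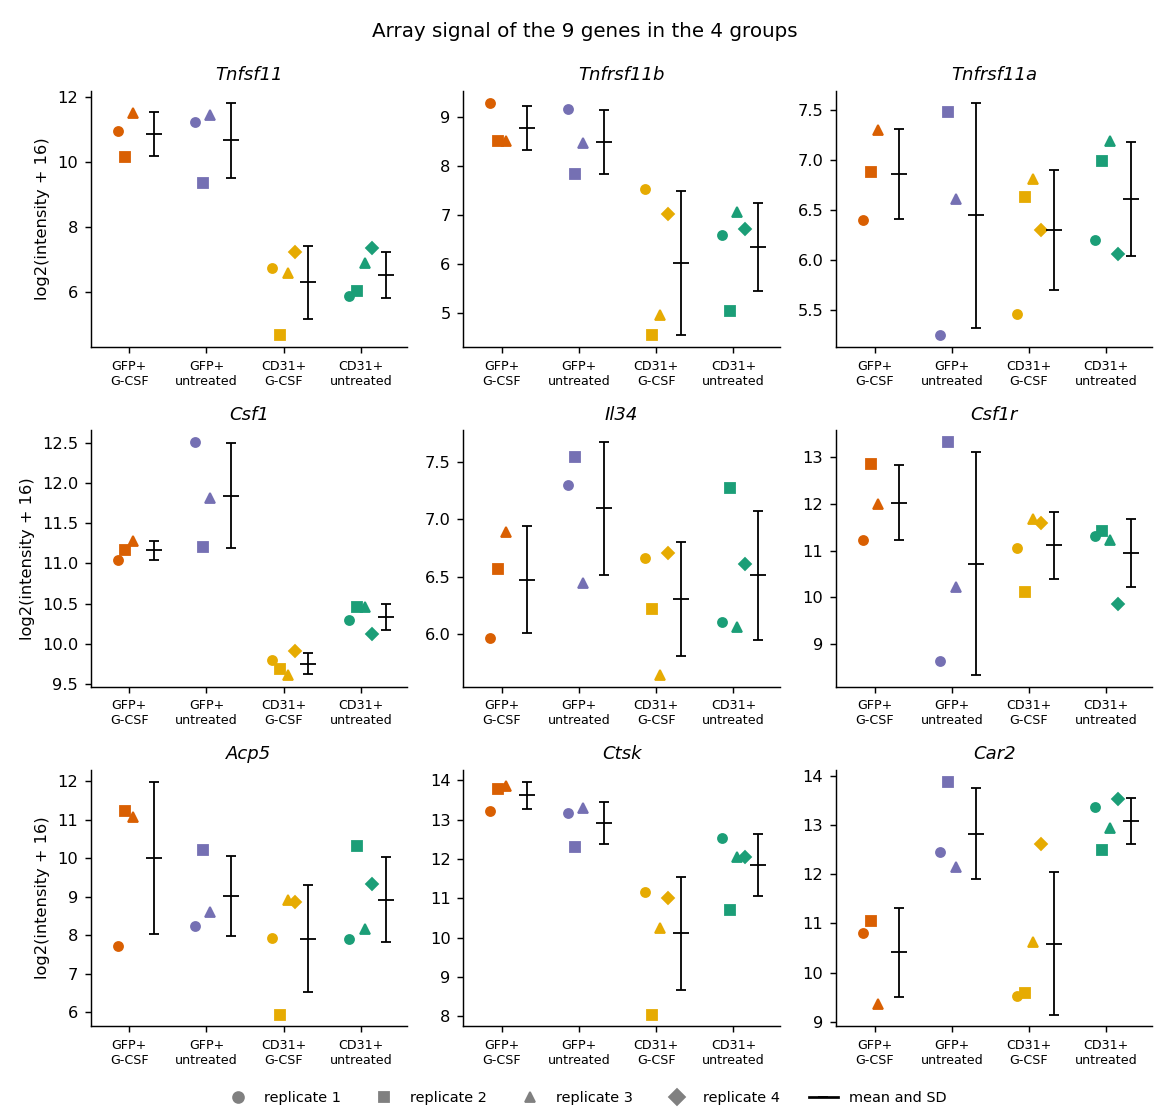
Signal of the 9 genes on each of the 14 arrays, as log2 of intensity plus 16 on the vertical axis, in GFP+ and CD31+ cells after G-CSF or untreated. Points are arrays, with a shape for each replicate number, and the bar beside them is the mean with its SD. The GFP+ arrays lie above all CD31+ arrays for Tnfsf11, Tnfrsf11b and Csf1 in both conditions, while Csf1r and Acp5 spread widely within groups.

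Taken as the balance of RANKL to OPG on each array, (Tnfsf11 + 16) / (Tnfrsf11b + 16), the ratio was 3.18, 3.17 and 7.99 in GFP+ cells after G-CSF and 4.26, 2.87 and 8.00 in untreated GFP+ cells. It was 0.572, 1.07, 3.05 and 1.16 in CD31+ cells after G-CSF and 0.604, 1.97, 0.886 and 1.56 in untreated CD31+ cells. The GFP+ arrays were nearly the same with and without G-CSF. With 16 added to each signal, only CD31+ replicate 3 after G-CSF reached the lower end of the GFP+ range. The added 16 draws ratios of low signals toward 1. On that array Tnfsf11 was 79.8 and Tnfrsf11b 15.4, and on untreated CD31+ replicate 2 they were 49.0 and 17.0. Without the 16 both ratios would be higher, so where CD31+ arrays fall against the GFP+ range depends on it. The highest balances, 7.99 and 8.00, were those of GFP+ replicate 3, whose actin 3'/5' signal ratios, a sign of RNA quality, were 10.5 after G-CSF and 11 untreated, against 2.62 to 6.57 on the other 12 arrays. The same ratio for Gapdh did not single out these arrays, at 18.4 after G-CSF and 13.0 untreated, within a range of 5.88 to 20.9 over all arrays. The part of RNA quality in the balance was not tested. This is a ratio of signals of probe sets that bind RNA with unequal strength, so it can be compared between arrays but is no ratio of molecules.

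The mean log2 balance was 2.11 ± 0.77 after G-CSF and 2.20 ± 0.75 without treatment in GFP+ cells (SD, n = 3 each), and 0.28 ± 1.00 and 0.18 ± 0.77 in CD31+ cells (SD, n = 4 each). With G-CSF it differed by -0.09 in GFP+ cells (exact permutation test, p = 0.90, where the smallest possible p is 0.10), by 0.10 in CD31+ cells (exact p = 0.83) and by 0.0039 over both sorts with labels permuted within each sort (exact p = 0.99). Across both treatments the balance was higher in GFP+ than in CD31+ cells by 1.93, or 3.80-fold (exact permutation within each treatment, 2-sided, p = 0.00245, adjusted over 6 balance tests 0.0147). That test treats same-numbered arrays of a sort as independent, although the numbers may pair them. With each pair averaged, 3 GFP+ against 4 CD31+ replicate sets gave the same 1.93 with an exact permutation p of 0.0286, the smallest this design allows, and it did not pass over the 6 tests (adjusted 0.0857). Within 1 condition the difference was 1.83 after G-CSF (exact p = 0.0571, adjusted 0.114) and 2.02 without treatment (exact p = 0.0286, adjusted 0.0857). The call over both treatments was also lost with a pseudocount of 1 (1.83, adjusted p = 0.0588, exact test) and among the arrays deposited with 1 decimal alone, where each condition holds 1 GFP+ array (1.65, adjusted p = 0.160, exact test).

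**Figure D2:**
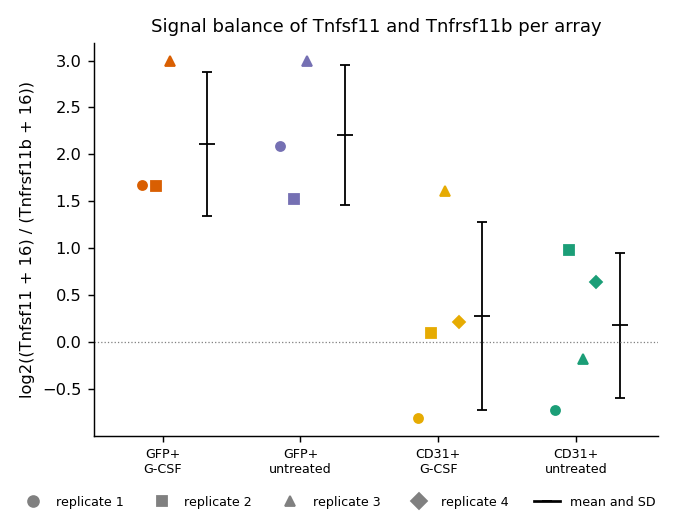
Balance of RANKL to OPG signal on each array, as log2((Tnfsf11 + 16) / (Tnfrsf11b + 16)) on the vertical axis, in the 4 groups. Points are arrays and bars the mean and SD. The dotted line marks equal signal. The GFP+ arrays lie between 1.52 and 3.00 in both conditions, and the CD31+ arrays between -0.81 and 1.61.

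Tnfrsf11a (Entrez 21934), the gene of the receptor RANK, was dim in all groups. Its signals were 68.7, 102 and 141 in GFP+ cells after G-CSF and 21.9, 163 and 82.0 in untreated GFP+ cells, and 27.9 to 96.3 in CD31+ cells after G-CSF and 50.5 to 130.2 in untreated CD31+ cells. The 4 groups overlapped, and the highest array was untreated GFP+ replicate 2. No comparison of Tnfrsf11a passed the test, with log2 changes of 0.41 ± 0.52 (G-CSF, GFP+ cells), -0.31 ± 0.45 (G-CSF, CD31+ cells), 0.56 ± 0.49 (GFP+ over CD31+, after G-CSF) and -0.16 ± 0.49 (untreated). Its second probe set, too dim to be tested, gave 2.0 to 48.4 in GFP+ and 28.8 to 63.2 in CD31+ cells after G-CSF. Untreated, it gave 4.8 to 65.5 in GFP+ and 3.9 to 46.0 in CD31+ cells.

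Csf1 (Entrez 12977), the gene of M-CSF, was higher in GFP+ than in CD31+ cells in both conditions, and its signal was lower in every CD31+ array after G-CSF than in any untreated one, without passing the test over all genes. Csf1 had signals of 2091, 2285 and 2464 in GFP+ cells after G-CSF and 5811, 2354 and 3578 in untreated GFP+ cells. It had 878, 810.1, 768 and 949.8 in CD31+ cells after G-CSF and 1248, 1397, 1392 and 1095 in untreated CD31+ cells. Untreated GFP+ replicate 2, the array with high blood markers, was the only untreated GFP+ array within the range of the treated ones.

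GFP+ cells exceeded CD31+ cells in Csf1 by 1.41 ± 0.24 after G-CSF, 2.65-fold with an adjusted p of 0.000372, and by 1.51 ± 0.24 without treatment, 2.84-fold with an adjusted p of 0.000277. With G-CSF the change was -0.68 ± 0.26 in GFP+ cells (95% interval -1.23 to -0.14, adjusted p 0.402) and -0.58 ± 0.22 in CD31+ cells (-1.05 to -0.11, adjusted p 0.241). Groups that do not overlap, with G-CSF lower, were found for 5.62% of all genes in CD31+ cells. The GFP+ change hung on single arrays: Csf1 fell by 1.00 without untreated replicate 2 (adjusted p 0.0178), and its change was -0.35 without untreated replicate 1 (adjusted p 0.705). In CD31+ cells it passed with array weights (-0.57, adjusted p 0.0372), and it was -0.65 to -0.53 with each array left out in turn (adjusted p 0.296 to 0.448). Centred on the median, the CD31+ change was -0.42 (adjusted p 0.408). Fitted with only the arrays compared, it was -0.58 ± 0.14 (adjusted p 0.0524). The difference of the G-CSF changes of Csf1 between the sorts was -0.10 ± 0.34.

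All 4 probe sets of Csf1 passed the filter, and each gave the same directions. Over the 4 probe sets the G-CSF change ran from -0.74 to -0.63 in GFP+ cells and from -0.91 to -0.44 in CD31+ cells, none passing a test over 24678 probe sets. GFP+ cells exceeded CD31+ cells by 1.00 to 1.98 after G-CSF and by 1.30 to 1.70 without treatment, called for 4 of 4 probe sets in each condition.

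**Figure D3:**
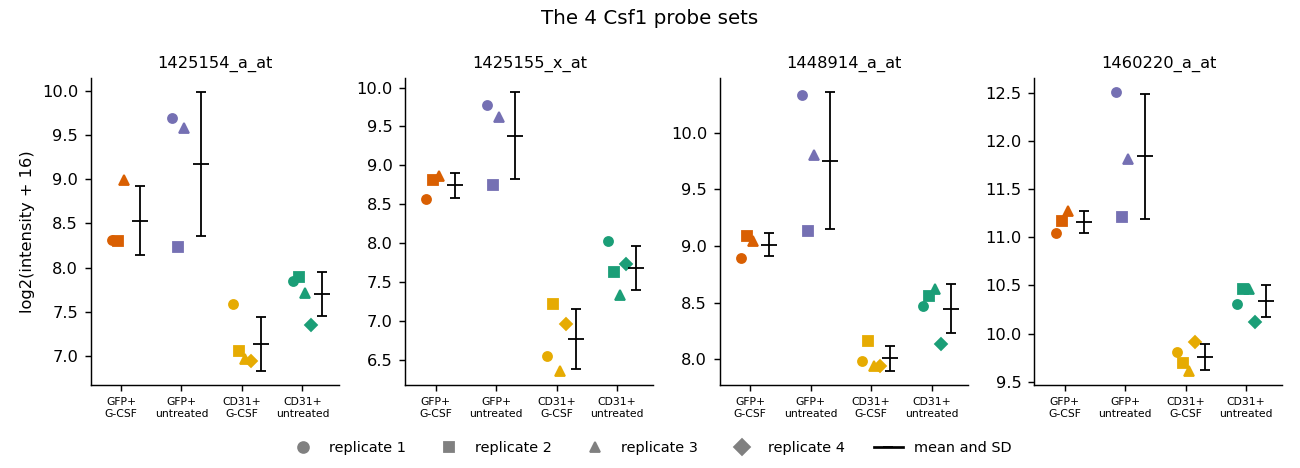
The 4 probe sets of Csf1 in the 4 groups, as log2 of intensity plus 16 on the vertical axis, 1 panel a probe set. Points are arrays and bars the mean and SD. In each panel the 4 arrays of CD31+ cells after G-CSF have a lower mean than the untreated ones, and untreated GFP+ replicate 2 is the lowest of its group.

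Il34 (Entrez 76527), the gene of the other ligand of CSF1R, was dim. Its signals were 46.7, 78.7 and 102 in GFP+ cells after G-CSF and 141, 170.1 and 71.0 in untreated GFP+ cells, and 34.1 to 88.5 in CD31+ cells after G-CSF and 50.9 to 138 in untreated CD31+ cells. All 4 groups overlapped. Log2 changes with G-CSF were -0.62 ± 0.42 in GFP+ cells and -0.21 ± 0.36 in CD31+ cells, and the sorts differed by 0.17 ± 0.39 after G-CSF and 0.58 ± 0.39 without treatment, none called.

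Csf1r (Entrez 12978), the gene of the receptor of both ligands and a gene of the monocyte lineage, varied between arrays along with blood cell transcripts. Its signals were 2398, 7414 and 4076 in GFP+ cells after G-CSF and 379, 10264 and 1170.4 in untreated GFP+ cells. They were 2115, 1097, 3277 and 3054 in CD31+ cells after G-CSF and 2510.4, 2718, 2388 and 911 in untreated CD31+ cells. The 4 groups overlapped, and untreated GFP+ replicate 2 was the highest array of all while the other untreated GFP+ arrays were low.

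With G-CSF, Csf1r differed by 1.31 ± 0.86 in GFP+ cells (adjusted p 0.730) and by 0.16 ± 0.74 in CD31+ cells (adjusted p 0.970). The GFP+ change was 2.61 without untreated replicate 2 (adjusted p 0.0224) and 0.26 without untreated replicate 1 (adjusted p 0.951). Between the untreated sorts Csf1r differed by -0.23 ± 0.80. That difference was -1.53 without GFP+ replicate 2 (adjusted p 0.0484, where 17.5% of all genes were called lower), -1.42 without both untreated arrays that stood apart (adjusted p 0.0950) and 0.82 without GFP+ replicate 1 (adjusted p 0.492). Summed neutrophil markers on the same arrays were 202061 to 274312 in GFP+ cells after G-CSF and 46412, 60543 and, in replicate 2, 294647 in untreated GFP+ cells. None of the 13 measured neutrophil markers was at 0 in any group. Summed monocyte and macrophage markers (20 genes) were 16102 to 40941 in GFP+ cells after G-CSF and 12398 to 52511 in untreated GFP+ cells, with none at 0. Over the 14 arrays Csf1r correlated with the log2 neutrophil sum by 0.78 (0.82 for deviations from group means) and with the monocyte and macrophage sum by 0.55 (0.68). The highest correlation was with the T and NK cell sum, 0.87 (0.88), of whose 12 genes 4 were bright enough to test. With the B lineage sum it was 0.21 (0.63) and with the erythroid sum 0.04 (0.53). These arrays share their sort and replicate structure, and the part of such cells in the Csf1r result was not tested.

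The other 2 Csf1r probe sets gave G-CSF changes of 1.04 and 0.16 in GFP+ cells and 0.49 and -0.07 in CD31+ cells. None of these passed. Untreated GFP+ replicate 2 was the highest array for both.

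Among the enzymes, Ctsk was higher in GFP+ than in CD31+ cells after G-CSF, and without treatment the difference did not pass the test. Ctsk (Entrez 13038) had signals of 9443, 14126 and 14653.5 in GFP+ cells after G-CSF and 9224, 5048 and 9949 in untreated GFP+ cells. It had 2274.5, 248, 1198 and 2027 in CD31+ cells after G-CSF and 5943, 1656, 4240.3 and 4242 in untreated CD31+ cells. After G-CSF all GFP+ arrays were above all CD31+ arrays, whereas the untreated sorts overlapped. GFP+ cells were higher by 3.50 ± 0.61 after G-CSF, 11.3-fold with an adjusted p of 0.000427, and by 1.08 ± 0.61 without treatment (adjusted p 0.214). The difference after G-CSF was 2.81 without CD31+ replicate 2, the array at 248.

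With G-CSF, Ctsk differed by 0.69 ± 0.65 in GFP+ cells (adjusted p 0.847) and by -1.73 ± 0.56 in CD31+ cells (95% interval -2.92 to -0.53, adjusted p 0.144). With the replicate number as a block, it fell by 1.73 in CD31+ cells with an adjusted p of 0.00766, and without replicate 2 after G-CSF the CD31+ change was -1.04 (adjusted p 0.293, no block). Pairs of the same number gave 0.03, 1.48 and 0.56 in GFP+ cells and -1.38, -2.66, -1.81 and -1.06 in CD31+ cells. The difference between these changes, 2.42 ± 0.86, did not pass (adjusted p 0.907, or 0.108 with the replicate block), and its adjusted p ran from 0.108 to 1.000 over all alternatives. The summed osteoblast markers moved with it in CD31+ cells, at 45466 to 131838 after G-CSF and 126351 to 213088 without treatment. None of the 13 was at 0, and 1 of 13 was called lower, against 1.14% of all genes. Over the 14 arrays Ctsk correlated with this sum by 0.96 (0.91 for deviations from group means), and the part of osteoblast lineage RNA in the CD31+ result was not tested.

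Acp5 (Entrez 11433) was uneven within groups, with signals of 195, 2377 and 2158 in GFP+ cells after G-CSF and 288, 1176 and 372 in untreated GFP+ cells. It had 228, 45.5, 469.5 and 452 in CD31+ cells after G-CSF and 226, 1259, 269.5 and 629.6 in untreated CD31+ cells. Replicate 1 after G-CSF lay far below the other treated GFP+ arrays, and all groups overlapped. GFP+ cells differed from CD31+ cells by 2.10 ± 0.89 after G-CSF (adjusted p 0.0884) and by 0.09 ± 0.89 without treatment. The first of these was 1.44 to 3.24 with each array left out in turn, 3.24 being the value without GFP+ replicate 1 after G-CSF (adjusted p 0.00924), and 0.56 with the number of decimals as a batch (adjusted p 0.695). Changes with G-CSF were 0.99 ± 0.95 in GFP+ cells and -1.02 ± 0.83 in CD31+ cells, neither called.

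Car2 (Entrez 12349) had a lower mean signal after G-CSF in both sorts, which did not pass the test over all genes. Its signals were 1785, 2100.5 and 647 in GFP+ cells after G-CSF and 5607, 15032 and 4500.2 in untreated GFP+ cells. They were 727, 755, 1565 and 6282 in CD31+ cells after G-CSF and 10512, 5736, 7864 and 11844 in untreated CD31+ cells. In GFP+ cells every treated array was below every untreated one, a separation found for 5.69% of all genes. In CD31+ cells all but replicate 4 after G-CSF were below the untreated arrays.

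The G-CSF change of Car2 was -2.41 ± 0.69 in GFP+ cells (95% interval -3.89 to -0.93, adjusted p 0.239) and -2.49 ± 0.60 in CD31+ cells (-3.77 to -1.21, adjusted p 0.0523). In CD31+ cells it passed with the replicate number as a block (adjusted p 0.00668), and without replicate 4 after G-CSF, when Car2 fell by 3.16 (adjusted p 0.00407). It also passed with array weights (adjusted p 0.0144), with only the arrays compared (0.0455) and without untreated CD31+ replicate 2 (0.0434). Under the other alternatives it did not pass. With each array left out in turn the CD31+ change ran from -3.16 to -2.14 (adjusted p 0.00407 to 0.161), and the GFP+ change was -1.89 without untreated replicate 2. The sorts differed by -0.18 ± 0.65 after G-CSF and by -0.26 ± 0.65 without treatment. Car2 is also abundant in the red cell lineage. Summed erythroid markers (11 genes, none at 0) were 1151 to 2941 in GFP+ cells after G-CSF and 5224 to 24125 in untreated GFP+ cells, and 882 to 7259 in CD31+ cells after G-CSF and 6351 to 17664 in untreated CD31+ cells. Of 10 tested erythroid markers, 5 were called lower after G-CSF in CD31+ cells, against 1.14% of all genes. In GFP+ cells 0 were, where 0.230% of all genes were called either way. Untreated GFP+ replicate 2 was the highest array of its group in both Car2 and the erythroid sum, as was CD31+ replicate 4 after G-CSF. Over the 14 arrays Car2 and the log2 erythroid sum correlated by 0.98 (0.94 for deviations from group means), and the part of erythroid RNA in the Car2 differences was not tested.

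**Figure D4:**
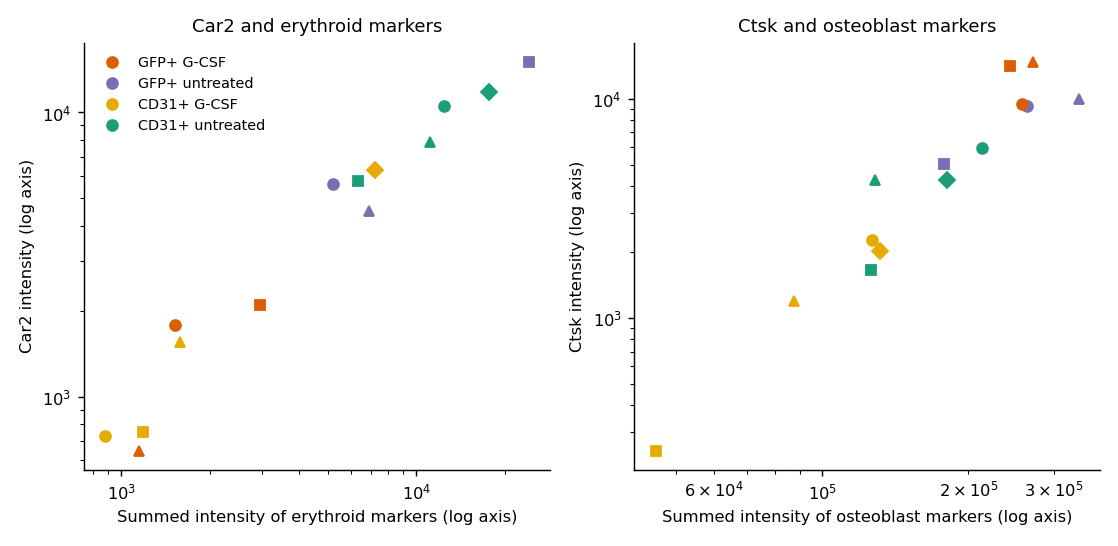
Left, Car2 intensity against the summed intensity of erythroid markers; right, Ctsk intensity against the summed intensity of osteoblast markers, each on log axes, with 1 point an array, colours for groups and shapes for replicate numbers (circle 1, square 2, triangle 3, diamond 4). Arrays with a high marker sum have a high signal of the enzyme in both panels (r of 0.98 and 0.96 over 14 arrays).

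Counted over the 9 genes, 0 were called with G-CSF in GFP+ cells, where 0.230% of 13453 genes were called (0.476% with the replicate block), and 0 in CD31+ cells, where 1.60% were called (4.91% with the block). With the replicate block 2 were called in CD31+ cells (Ctsk and Car2, both lower), against 3.87% of all genes called lower. Without untreated GFP+ replicate 2, Csf1 was called lower and Csf1r higher with G-CSF in GFP+ cells, against 0.364% of all genes lower and 3.17% higher. Between the sorts 4 of 9 were higher in GFP+ cells after G-CSF (Tnfsf11, Tnfrsf11b, Csf1 and Ctsk), against 17.5% of all genes, and 3 of 9 without treatment (Tnfsf11, Tnfrsf11b and Csf1), against 13.6%. None was called lower. The groups of these same genes did not overlap, as was so for 21.4% of all genes after G-CSF and 16.7% without treatment. The difference of the G-CSF changes was called for none of the 9 and for 0 of 13453 genes in limma. There 622 genes had an unadjusted p under 0.05, no more than such a cut-off passes by chance. Median log2 changes of the 9 were 0.28 in GFP+ and -0.33 in CD31+ cells with G-CSF, and 1.41 and 0.58 for GFP+ over CD31+ cells after G-CSF and without treatment, beside medians of all genes of -0.04, -0.05, 0.02 and 0.00.

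**Figure D5:**
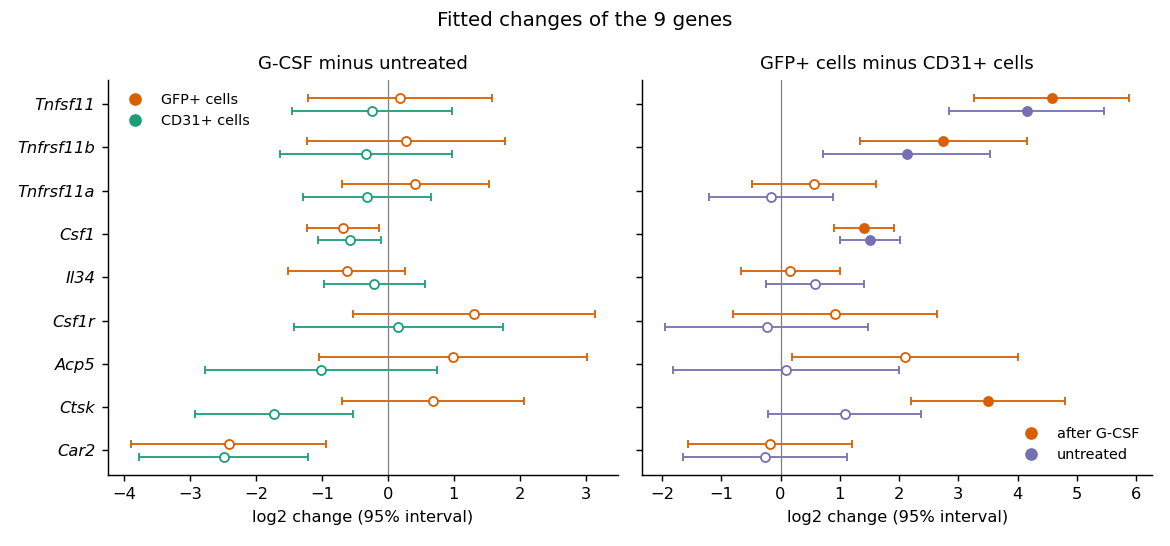
Fitted log2 changes of the 9 genes with 95% intervals, for G-CSF minus untreated in GFP+ and CD31+ cells (left) and for GFP+ minus CD31+ cells after G-CSF and untreated (right). Filled points have an adjusted p under 0.05, open points do not. Filled points appear in the right panel alone, for Tnfsf11, Tnfrsf11b and Csf1 in both conditions and for Ctsk after G-CSF.

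Other genes, listed as stromal regulators of osteoclasts (34 of 39 being bright enough to test), included 15 higher and 5 lower in GFP+ than in CD31+ cells after G-CSF and 10 higher and 7 lower without treatment (median log2 differences 0.87 and 0.38). The largest were Postn (periostin, a matrix protein of bone surfaces), at 6.43 after G-CSF and 4.79 without treatment, Wnt16 (an osteoblast Wnt ligand that restrains osteoclasts in mice), at 5.80 and 4.58, and Wnt5a (a Wnt ligand), at 4.51 and 3.02. Wnt16 lay near the floor in CD31+ cells, with log2 means of 4.24 after G-CSF and 4.84 untreated. The size of its differences is therefore approximate. Efnb2, the ligand ephrin-B2, was lower in untreated GFP+ cells (-2.63). Its log2 means after G-CSF were 9.41 in GFP+ and 11.97 in CD31+ cells. Of all genes, 17.5% were called higher and 14.4% lower in GFP+ cells after G-CSF, and 13.6% and 12.8% without treatment. With G-CSF 0 of the 34 were called in GFP+ cells, where Il1b (interleukin 1 beta, 1.90) and Osm (oncostatin M, 1.54) had the largest values. The summed neutrophil markers given with Csf1r were 202061 to 274312 in GFP+ cells after G-CSF. Untreated, they were 46412, 60543 and, in replicate 2, 294647. Their part in the Il1b and Osm values was not tested. In CD31+ cells 2 of the 34 were called lower, as 1.14% of all genes were. These were Slit3, a secreted guidance protein, which fell by 2.58 (6.50 ± 1.18 after G-CSF against 9.08 ± 0.48 untreated, SD, n = 4 each, adjusted p 0.0151), and Pth1r, the parathyroid hormone receptor, which fell by 2.19 (9.14 ± 1.17 against 11.33 ± 1.01, adjusted p 0.0496). Treated and untreated arrays did not overlap for Slit3, as for 5.62% of all genes. For Pth1r they overlapped, and its adjusted p lay just under 0.05. No alternatives are given for these 2 genes. The summed osteoblast markers given with Ctsk were lower in the same CD31+ arrays, at 45466 to 131838 after G-CSF and 126351 to 213088 untreated (1 of 13 called lower), and their part in both falls was not tested. Slit3 was higher in GFP+ than in CD31+ cells by 3.92 after G-CSF, and its untreated log2 means were 11.01 and 9.08. The difference of G-CSF changes was called for none of these genes, the largest values being those of Cthrc1, a secreted matrix protein (2.54), and Slit3 (1.99).

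Genes of osteoclast differentiation and fusion, 20 of 26 listed genes tested, were called with G-CSF for 0 genes in either sort. The largest G-CSF values were those of Tyrobp, the adaptor of activating myeloid receptors (2.31 ± 0.94 in GFP+ cells, 1.18 ± 0.81 in CD31+ cells), Blvrb, biliverdin reductase B (-1.34 ± 0.49 in GFP+ cells), and Spi1, the myeloid transcription factor PU.1 (1.14 ± 0.46 in CD31+ cells). Between the sorts 4 were higher and 3 lower in GFP+ cells after G-CSF, and 1 was higher and 4 lower without treatment. The shares over all genes were 17.5% higher and 14.4% lower after G-CSF, and 13.6% and 12.8% without treatment. Mitf, a transcription factor of osteoclasts and pigment cells, was higher in GFP+ cells by 1.55 and 1.15, and Prdm1 (the repressor Blimp1) was lower (-1.04 and -2.11). After G-CSF Nfatc1, the transcription factor that RANKL signalling induces, was lower in GFP+ cells (-0.98) and Nfkb2, a subunit of NF-kB, was higher (0.86). Without treatment Sirpa (-1.88) and Relb (-1.11) were lower in GFP+ cells.

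Genes of acid secretion and matrix breakdown, 19 of 19 tested, were also called with G-CSF for 0 genes in either sort. Mmp9, a gelatinase of osteoclasts and neutrophils, had the largest values, 1.66 ± 0.47 in GFP+ cells (adjusted p 0.239) and 1.47 ± 0.41 in CD31+ cells (adjusted p 0.0864), followed by Atp6v0d2 (1.09 ± 0.66 in GFP+ cells) and Atp6v1a (0.77 ± 0.21 in CD31+ cells), both subunits of the proton pump. Between the sorts 3 were higher and 3 lower in GFP+ cells after G-CSF, and 2 were higher and 5 lower without treatment. Over all genes the shares were 17.5% higher and 14.4% lower after G-CSF, and 13.6% and 12.8% without treatment. Mmp14, a membrane-bound collagenase, was higher in GFP+ cells by 2.36 and 2.19, and Cst3, a cathepsin inhibitor, by 0.91 and 0.99. Atp6v0d2 was higher in GFP+ cells after G-CSF by 1.98 and Plekhm1, a protein of lysosome transport in osteoclasts, was lower (-0.84), while Ctsd (cathepsin D, -0.86) and Atp6v1c1 (-0.83) were lower in untreated GFP+ cells.

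Across the 14 arrays, whose sort difference all these genes share, Tnfsf11 and Tnfrsf11b correlated by 0.89 (0.63 for deviations from group means), Tnfsf11 and Csf1 by 0.86 (0.43), and Ctsk with Tnfrsf11b by 0.87 (0.79). Csf1r and Tnfrsf11a, the receptors, correlated by 0.71 (0.71). The patterns most like that of Tnfsf11 over all genes tested were those of Col12a1 (0.98), Olfml2b, Esr1, Pla2r1 and Runx1 (0.98 to 0.97), and those most like Tnfrsf11b were Panx3 (0.97), Zfp9, Timp1, Bmp8a and Pdgfc (0.95 to 0.94). Most like Csf1 were 4933431E20Rik (0.98), Il7, Pappa, Mertk and Tpm1 (0.97). Most like Csf1r were Cdc20 (0.96), Ly86, Hcst, Cd86 and Kif2c (0.93 to 0.90), and most like Ctsk were Fap, Mmp2, Col5a1, Ibsp and Lum (0.98 each). In deviations from group means these correlations were 0.68 to 0.91 for Tnfsf11, 0.83 to 0.94 for Tnfrsf11b, 0.72 to 0.89 for Csf1, 0.89 to 0.98 for Csf1r and 0.94 to 0.98 for Ctsk.

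By order of group means, Tnfsf11 and Tnfrsf11b ran from GFP+ cells after G-CSF and untreated GFP+ cells down to untreated CD31+ cells and CD31+ cells after G-CSF, with a gap between arrays only where the sorts meet. Csf1 ran from untreated GFP+ cells through GFP+ cells after G-CSF and untreated CD31+ cells to CD31+ cells after G-CSF, and its 2 lower steps had no overlapping arrays. Ctsk and Acp5 had the order of Tnfsf11 with neighbouring groups overlapping throughout. Car2 was highest in both untreated groups. For Tnfrsf11a, Il34 and Csf1r each group overlapped its neighbours.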

How the data were processed

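The deposited table holds 1 intensity per probe set and array on a linear scale, written by the authors from Expression Console 1.1 of Affymetrix, per the submitters' processing notes. The summarisation algorithm is not given in the sources used here. Trimmed means over all probe sets, with 2% cut from each end, were near equal, so values were not scaled again. Of 45101 probe sets, 64 controls, 932 with several symbols in the platform annotation and 9160 with none were left out, leaving 34945. Values were taken as log2(intensity + 16), the dimmest 33.3% by mean were dropped, and the brightest probe set stood for its gene, giving 13453 genes. Apart from the balance of Tnfsf11 to Tnfrsf11b and the marker sums, intensities of different probe sets are not set against each other. The number of arrays limits the precision.

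A model with 4 group means over all 14 arrays was fitted with limma 3.58.1 in R 4.3.3 (lmFit, contrasts.fit, eBayes with a trend). Every adjusted p is from this 2-sided test, adjusted by Benjamini and Hochberg over all genes, with a call under 0.05, unless the sentence names an exact permutation test, which was run in Python 3.11.15 for the balance of Tnfsf11 to Tnfrsf11b. The procedure was tested on simulated data. Errors beside fitted changes are SE.

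The members, gene lists (3 pathway lists and 10 marker lists) and tests were chosen with earlier results of these data known. Named genes were the 9 members, up to 4 called genes of each pathway list per comparison with the largest change (or the 2 largest where none was called), and the 5 genes correlated best with each of 5 members. Replicate numbers come from the titles. Deviations of same-numbered treated and untreated arrays from their group means correlated by 0.223 to 0.315 in GFP+ and 0.102 to 0.377 in CD31+ cells. Arrays of different numbers were not set beside these, and the labels do not say what the number marks. Pairing by number within a sort is therefore possible but not shown. The replicate block is given where it changes a call. Alternatives covered the pseudocount, scaling, filter, probe sets, prior, weights, arrays in the fit, the block and each array left out. No 2 arrays held identical values.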

Additional observations from a re-analysis of the deposited data

Results flagged for a closer look

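Csf1r in untreated CD31+ cells had 1 array, replicate 4, far below the other 3, at 9.86 on the log2 scale, with a gap to the next array above Dixon's critical value for 4 arrays. In all, 20 groups of 4 values were checked, and chance alone puts about 1 in 20 past this value. The change of Ctsk with G-CSF differed in sign between the sorts. Same-numbered GFP+ arrays were higher after G-CSF by 0.03, 1.48 and 0.56 on the log2 scale, the first of these near 0. Every such pair of CD31+ arrays was lower. In limma neither change was called (0.69 ± 0.65 in GFP+ cells, adjusted p 0.847, and -1.73 ± 0.56 in CD31+ cells, adjusted p 0.144). The difference between the mean changes, 2.42, did not pass the limma test of the difference over all genes (adjusted p 0.907).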

How the results depend on the processing

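The calls of Tnfsf11 and Csf1 between the sorts, in both conditions, and of Ctsk and Tnfrsf11b after G-CSF held under every alternative run that gave them a value. Array medians over all probe sets averaged 7.02 in GFP+ and 6.63 in CD31+ cells after G-CSF, and 7.05 and 6.82 without treatment. Centred on them, Tnfsf11 was higher in GFP+ cells by 4.29 and 4.00, Csf1 by 1.12 and 1.36, Tnfrsf11b by 2.46 and 1.98 and Ctsk, after G-CSF, by 3.22. The count of members called with G-CSF in GFP+ cells was 0 to 2 when each array was left out in turn, and 2 without the 2 untreated arrays that stood apart. In CD31+ cells it was 2 with the replicate block, 1 with only the arrays compared, 2 with array weights and 0 to 1 when each array was left out. Directions that reversed were all of uncalled values. Tnfsf11 in GFP+ cells changed by -0.33 with array weights, by -0.48 without those 2 arrays and by -0.48 to 0.58 leaving out 1 array. Tnfrsf11b changed there by -0.044 without those 2 arrays and by -0.044 to 0.61 leaving out 1. In CD31+ cells the ranges leaving out 1 array were -0.54 to 0.31 for Tnfsf11 and -0.84 to 0.15 for Tnfrsf11b. Csf1r between untreated sorts was 0.14 with the mean of probe sets, 0.43 and 0.24 with its other probe sets and -1.53 to 0.82 leaving out 1 array, and after G-CSF it was -0.53 with the number of decimals as a batch. The balance changed with G-CSF by -0.54 to 0.31 in GFP+ cells, -0.34 to 0.46 in CD31+ cells and -0.22 to 0.20 over both leaving out 1 array. Without those 2 arrays it changed by -0.20 in CD31+ cells and -0.32 over both, and over both by -0.025 with a pseudocount of 64 and -0.16 among arrays with 1 decimal. Between the sorts over both treatments it was 1.71 to 2.15 leaving out 1 array, 1.83 with a pseudocount of 1, 1.65 among arrays with 1 decimal and 1.93 with same-numbered arrays averaged, and with these last 3 it no longer passed. The averaging leaves 3 against 4 sets, too few to pass; for the other changes the cause was not tested. The replicate block changed no other call among members than those of Ctsk and Car2 in CD31+ cells, and over all genes it called 64 against 31 in GFP+ and 660 against 215 in CD31+ cells. It cannot serve contrasts between sorts within a condition. Averaging same-numbered arrays, leaving out arrays that stood apart, the other Csf1 and Csf1r probe sets and the decimals were alternatives chosen after seeing the data. Probe sets without a suffix gave no value for Csf1, Il34 and Acp5. With 3 or 4 arrays a group and signals near the floor, changes of Tnfrsf11a and Il34 are poorly resolved.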
